A study of Mus musculus with 25 samples.

Results

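The MAP kinase cascade and the dual-specificity phosphatases were followed in the hypothalamus of mice injected with tumor cells under the skin. The cells were CT-26.WT, a cell line from a colon carcinoma of a BALB/c mouse. Members were all genes of the array's probe annotation with a symbol that starts with Mapk, Map2k, Map3k, Map4k, or with Dusp and a number, apart from Dusp1. This gave 38 genes of 8726 in all, named by 40 probes. By symbol they fall into 3 MAP4K, 11 MAP3K, 4 MAP2K and 5 MAP kinases, 2 MAP kinase-activated kinases (MAPKAPK), 3 adaptor or scaffold proteins, 2 typical MAP kinase phosphatases and 8 atypical dual-specificity phosphatases.

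Male BALB/c mice aged 8 weeks were given a subcutaneous injection of 1000000 of these cells suspended in 300 µl PBS (tumor), or 300 µl PBS alone (PBS), and the hypothalamus was taken after 18, 72 or 192 h. Each 2-colour array of in-house printed oligonucleotides held tumor RNA in one dye and PBS RNA in the other, so every value is a log2 ratio of tumor over PBS. All animals of both groups were of one sex, strain and age, and the tumor cells were a cell line injected away from the brain. Whether a replicate stands for 1 animal or for several is not given, so p-values describe the spread among these samples and part of it may be technical.

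The values came from 19 of 25 arrays, with 5 replicates for the first time, 2 for the second and 4 for the last. The other 6 arrays were left out by a choice made with these data known, and they enter 1 of the alternatives. At 18 h and 192 h, replicates 1 and 2 were polyA RNA on a single dye orientation, and the remaining replicates were total RNA on both orientations. At 72 h both replicates were total RNA. No print version of the array held both RNA types among the arrays used, so RNA type and print version cannot be told apart. Within total RNA, 192 h replicate 3 was on a print version of its own. Which channel held which dye was read from the order of the labels, so the direction of every ratio is likely rather than settled.

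A MAP kinase cascade passes a signal from the cell surface to the nucleus by serial phosphorylation. A MAP4K or a small GTPase activates a MAP3K, which phosphorylates a MAP2K, which in turn phosphorylates a MAP kinase. The MAP kinases are grouped as ERK, JNK, p38 and ERK5, and dual-specificity phosphatases remove the activating phosphates again. In the hypothalamus, ERK signalling acts downstream of the leptin receptor, and JNK and p38 are known for their response to inflammatory cytokines and cellular stress. The arrays measured transcripts, not phosphorylation.

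Depth limits every value below. Between 3056 and 9839 spots were measured per array, and between 17 and 37 members. A replicate gave a value for 2556 to 7777 genes and for 10 to 33 members. The spread over genes was widest in 18 h replicate 2, with an SD of 0.90 log2 units, and lay between 0.21 and 0.56 in the other replicates. The tissue check used 11 markers of neurons and the hypothalamus, of which 10 were named on the array. Among them oxytocin (Oxt) and the synaptic gene Snap25 were measured on all 19 arrays. In the median over arrays, the spots of all 10 ranked above at least 66.1% of spots. Unmeasured spots counted as dimmer in this share, so it does not place a marker among the measured spots. Of 23 markers of other cells that the tissue could hold, 11 were on the array and 9 were tested at 18 h and 4 at each later time. Unadjusted p-values under 0.05 were found for the astrocyte transporter Slc1a3 at 18 h (-0.31 ± 0.13 SE) and the B cell gene Cd79a at 72 h (-0.59 ± 0.25 SE). The other astrocyte marker tested at 18 h, S100b, had 0.19 ± 0.12, and Cd79a had 0.33 ± 0.18 at 18 h, both on the other side of 0. Their part in the members' values was not tested. In bulk tissue, fewer cells of a type and less RNA per cell cannot be told apart.

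The brightness of a spot depends on its probe as well as on the transcript, so the following order describes spots and not transcript levels. Mapk1ip1, a protein named for its interaction with a MAP kinase, had the brightest spots among the members. In the median over arrays it lay 3.00 log2 units above the median spot in the tumor channel and 2.86 in the PBS channel. Its spots outshone 92.5% to 99.7% of the spots of each array, where unmeasured spots counted as dimmer. It was the only member with a value in all 11 replicates. Mapk6, which encodes the atypical kinase ERK3, followed at 2.20 in the tumor channel and 2.28 in the PBS channel. Next came an activator of JNK, Map2k4, at 1.64 in the tumor channel and 1.70 in the PBS channel. An activator of ERK, Map2k1, had 1.24 in the tumor channel and 1.66 in the PBS channel. The JNK scaffold Mapk8ip2 (0.54 in tumor, 0.37 in PBS) and the p38 gamma kinase Mapk12 (0.61 in tumor, 0.50 in PBS) completed the 6 brightest. At the dim end stood Map4k1, a kinase best known from blood cells, at -1.30 in the tumor channel and -0.85 in the PBS channel. The other dim members were the JNK kinase Mapk8, the p38 delta kinase Mapk13, the atypical phosphatase Dusp22, and the MAP3Ks Map3k14 (also called NIK) and Map3k1 (also called MEKK1), with medians between -0.98 and -0.49 over both channels.

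By tier, the median brightness was highest in the MAP2K (0.54 in the tumor channel, 0.62 in the PBS channel) and lowest in the typical phosphatases in the tumor channel (-0.23, against -0.14 in the PBS channel) and in the MAP4K in the PBS channel (-0.34, against -0.13 in the tumor channel). Over all members it was -0.12 in the tumor channel and -0.08 in the PBS channel, close to -0.14 and -0.15 over all genes. Members were measured on 5 to 19 arrays (median 13.5, against 12 for all genes). The 5 arrays with Map3k14 never formed a dye pair, so this kinase had no replicate value. Net signal was a median of 1.20 times the local background for members and 1.26 times for all genes.

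**Figure D1:**
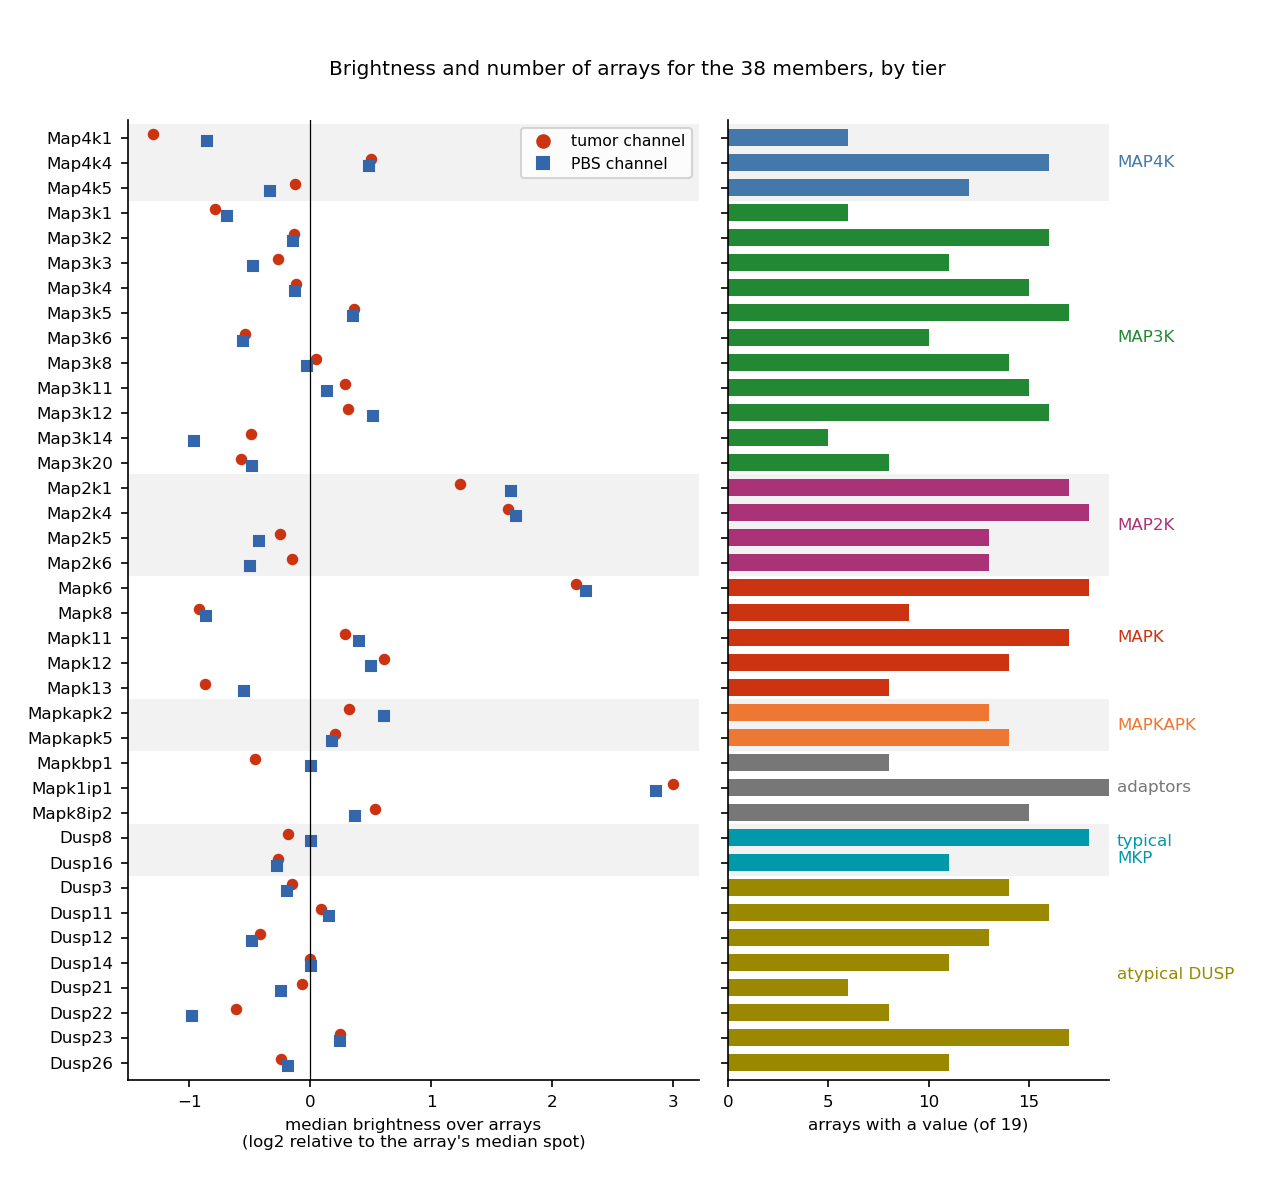
Left: median brightness of each member's spot over the arrays that measured it, in log2 units relative to the median spot of the array, with the tumor channel as circles and the PBS channel as squares. Right: bars give the number of arrays with a value, of 19. Mapk1ip1, Mapk6, Map2k4 and Map2k1 lie more than 1 unit above the median spot, and most other members lie within 1 unit of it.

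A gene was tested where at least 3 replicates of 18 h, 2 of 72 h or 3 of 192 h gave a value. This held for 25 members at the first time and 15 at each of the others. In all, 10 members were tested at each time and 12 at none. No member passed the threshold, an adjusted p of 0.05 in limma with Benjamini-Hochberg adjustment over all genes tested, at any time. The same was true of all genes: 0% of 5066 genes were called at 18 h, 0% of 1934 at 72 h and 0% of 2802 at 192 h. At an unadjusted p under 0.05, limma gave 1 of 25 members at 18 h, against 5.35% of all genes. It gave 0 of 15 members at 72 h, against 1.71% of all genes, and 1 of 15 at 192 h, against 4.25%. The members' shares are thus near those of all genes.

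The tested members were centred near 0 at each time, as all genes were. At 18 h their median log2 ratio was -0.04 (11 above 0 and 14 below), against -0.003 for all genes. At 72 h it was 0.01 (8 above and 7 below), against 0.01 for all genes. The 192 h median was 0.03 (9 above and 6 below), against -0.03 for all genes. Over all replicates, members had 236 values, of which 116 lay above 0 and 211 within 0.5 log2 units of 0, or 89.4%, against 89.5% of the values of all genes. Every replicate lay on one side of 0 for 6 of 25 members at 18 h, against 16.4% of all genes tested, for 9 of 15 at 72 h, against 53.1%, and for 2 of 15 at 192 h, against 14.3%. These counts are small, and no test was made of the members' shares against those of all genes.

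The intervals describe the tested members under the main processing alone. They do not cover the members that were not tested. Nor do they cover the choice of processing: Map3k12 at 192 h was -0.87 with another background correction. At each time the 95% interval of every tested member lay within 1 log2 unit of 0, and within 0.5 for 17 of 25 members at 18 h, 5 of 15 at 72 h and 10 of 15 at 192 h.

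**Figure D2:**
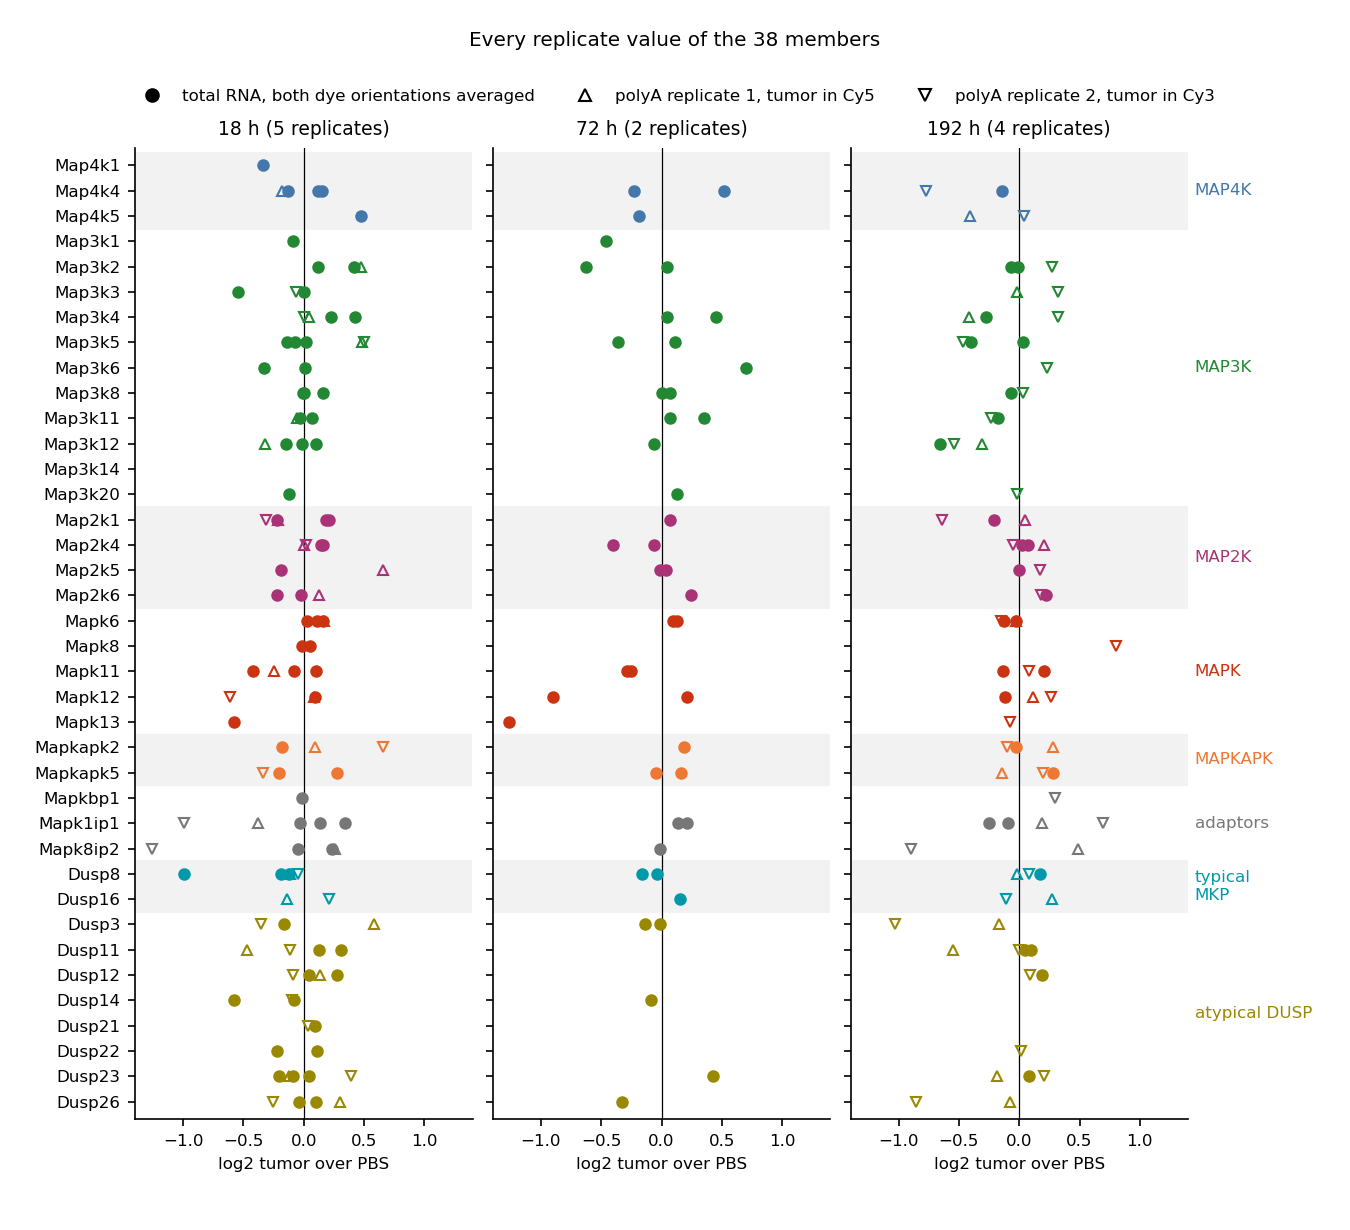
Log2 tumor over PBS of every member in every replicate, by time. Filled circles are total RNA replicates, the mean of both dye orientations, and open triangles are polyA replicates. Most values lie within 0.5 of 0, and the widest scatter is that of Mapk8ip2, Mapk1ip1 and Dusp3.

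**Figure D3:**
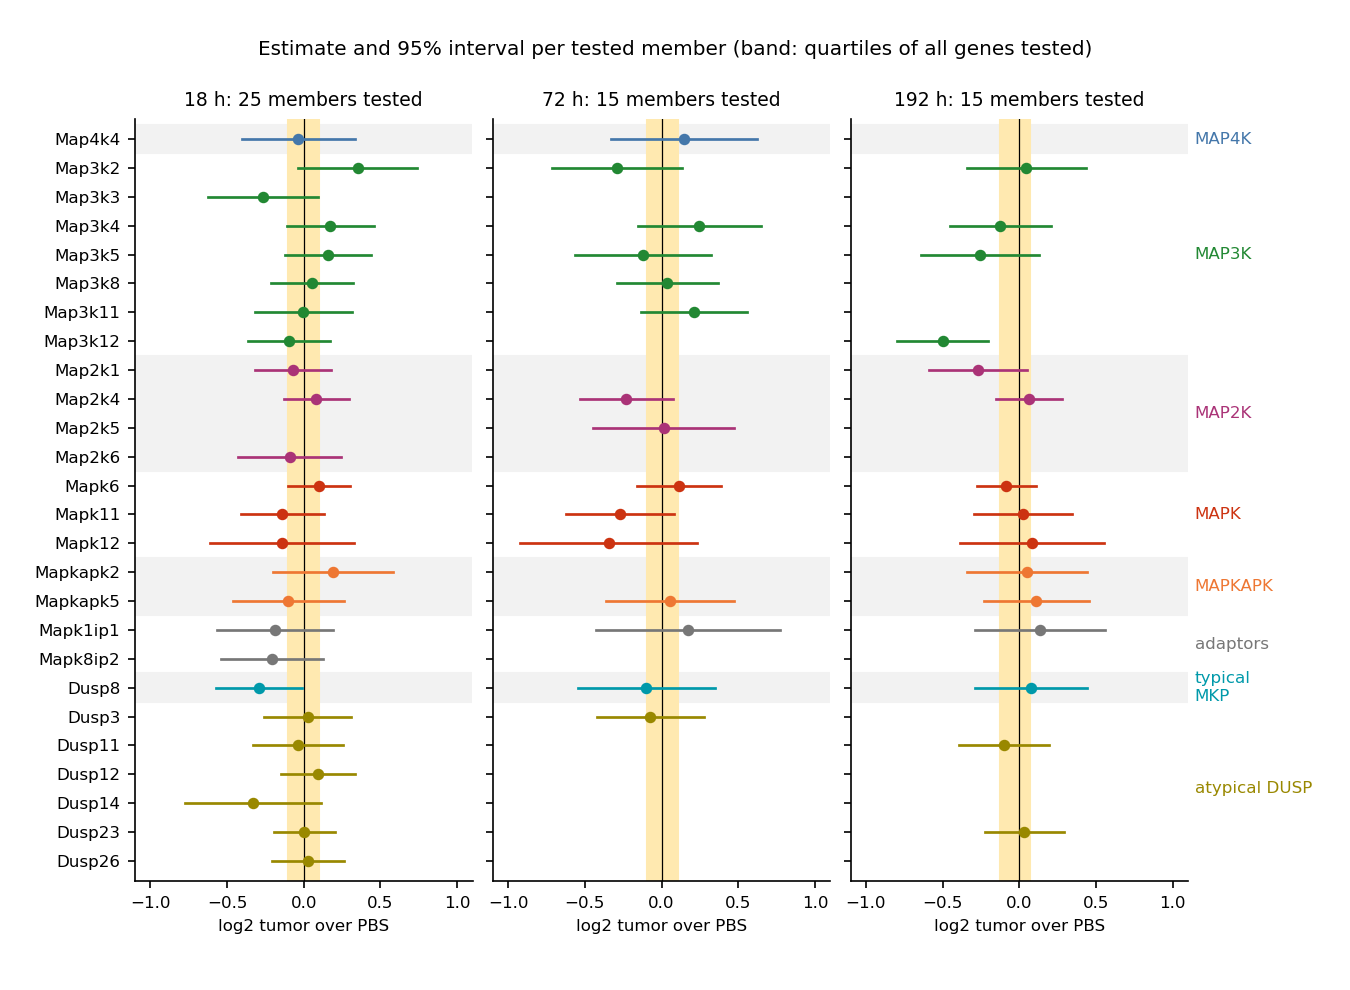
Limma estimate (point) and 95% interval (line) of log2 tumor over PBS for the members tested at each time. The shaded vertical band spans the quartiles of all genes tested. The intervals of Dusp8 at 18 h and Map3k12 at 192 h leave out 0 before adjustment for the number of genes.

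Among the MAP4K, kinases at the head of the cascade, Map4k4 alone was tested. It had -0.18, 0.16, 0.12 and -0.13 at 18 h, in replicates 1, 3, 4 and 5, and its values lay on both sides of 0. At 72 h it had 0.52 and -0.23, again on both sides. At 192 h it had -0.77 in the polyA replicate 2 and -0.15 in replicate 4, too few for a test. The first of these is the mean of 2 arrays with -1.64 and 0.09, which differ by more than any pair of its replicates. Map4k5 had 0.48 at 18 h, -0.19 at 72 h, and -0.41 and 0.04 at 192 h, and Map4k1 had a single value of -0.34 at 18 h.

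Among the MAP3K, Map3k12 stood furthest from 0 at 192 h. This kinase, also called DLK, is a neuronal activator of the JNK pathway. Its values at 192 h were -0.31 in replicate 1, -0.54 in replicate 2 and -0.66 in replicate 4, so all 3 were below 0. The estimate was -0.50 ± 0.13 (SE, 95% interval -0.80 to -0.21). In limma the unadjusted p was 0.0037 and the adjusted p was 0.9987, so the difference did not pass over all genes. The total RNA replicate showed it in both dye orientations, with -0.61 with tumor RNA in Cy5 and -0.70 with tumor RNA in Cy3. Replicate 3, measured in 1 orientation only and therefore not counted, had -0.07 on its array. At 18 h Map3k12 had -0.32, -0.15, -0.02 and 0.10, and at 72 h it had -0.06 in the single replicate measured, values that lay closer to 0 apart from the first. The estimate at 192 h depended on the values used: it was -0.03 from the authors' deposited log ratios and -0.87 with a normexp background correction, with no change of sign in any of 14 alternatives.

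Map3k2 (MEKK2), which feeds the ERK5 and JNK arms, had 0.47, 0.11 and 0.42 at 18 h, all above 0. Its estimate of 0.35 ± 0.17 (SE) had an adjusted p of 0.887 in limma. At 72 h it had -0.62 and 0.05, and at 192 h 0.27, -0.07 and -0.01, on both sides of 0. The value of -0.62 is the mean of -1.82 with tumor RNA in Cy5 and 0.57 with tumor RNA in Cy3. Those 2 arrays of one replicate differed more than any of its replicates did. The estimates were -0.29 ± 0.19 at 72 h (adjusted p = 0.992, limma) and 0.05 ± 0.17 at 192 h (adjusted p = 0.9987, limma). Without 72 h replicate 3 the 72 h estimate was 0.05.

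Map3k5, which encodes the stress-activated kinase ASK1, had 0.48 and 0.50 in the polyA replicates and -0.14, -0.07 and 0.02 in the total RNA replicates at 18 h. The RNA types did not overlap there. At 72 h it had 0.12 and -0.36, and at 192 h -0.46, 0.03 and -0.40, with 3 of these 5 values below 0. Map3k4 (MEKK4), an activator of the p38 and JNK arms, had 0.04, 0.005, 0.42 and 0.22 at 18 h and 0.05 and 0.45 at 72 h. All 6 values were above 0, while 192 h gave -0.42, 0.32 and -0.27, on both sides. The 6 are averages: the dye orientations of Map3k4 lay on opposite sides of 0 in 2 of 5 pairs. In 18 h replicate 5 Map3k4 had 0.69 with tumor RNA in Cy5 and -0.25 with tumor RNA in Cy3. In 72 h replicate 3 it had -0.23 and 0.32, in that order. Its estimates were 0.17 ± 0.13 at 18 h (adjusted p = 0.900, limma), 0.25 ± 0.18 at 72 h (adjusted p = 0.992, limma) and -0.12 ± 0.15 at 192 h (adjusted p = 0.9987, limma). Under leave-one-out fits and other settings the sign of the first held except with the authors' log ratios, where it was -0.04. With those log ratios the 72 h estimate was 0.005.

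Map3k3 (MEKK3) had -0.07, -0.55 and 0.001 at 18 h, where the middle value, from replicate 4, stood furthest from 0, and the estimate was -0.26 ± 0.16 (SE). At 192 h it had -0.02 and 0.32. Map3k11 (MLK3), another JNK activator, had 0.36 and 0.07 at 72 h, both above 0, and an estimate of 0.21 ± 0.15, which was -0.04 with the authors' log ratios. At 18 h its values of -0.06, 0.06 and -0.03 straddled 0, and at 192 h it had -0.23 and -0.18. Map3k8 (also called Tpl2), which activates the ERK arm in inflammatory signalling, had the narrowest range of the 21 members with at least 7 replicate values. Those of Map3k8 lay between -0.07 and 0.16. Only 1 of its arrays held polyA RNA, and 18 h replicate 2, the widest in spread over genes, gave it no value. Its dye orientations lay on opposite sides of 0 in 5 of 6 pairs. In 72 h replicate 3 they were -0.31 with tumor RNA in Cy5 and 0.46 with tumor RNA in Cy3. Single values were 0.01, -0.01 and 0.16 at 18 h, 0.07 and 0.01 at 72 h, and 0.03 and -0.07 at 192 h.

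The remaining MAP3Ks were tested at no time. Map3k6 (ASK2), a relative of Map3k5, had -0.33 and 0.01 at 18 h, 0.70 at 72 h and 0.23 at 192 h. Map3k1 had -0.09 at 18 h and -0.46 at 72 h, and Map3k20 (ZAK), a kinase activated by stalled ribosomes, had -0.12 at 18 h, 0.13 at 72 h and -0.02 at 192 h. These values lay on both sides of 0 except for the pair of Map3k1. Map3k14, which acts in non-canonical NF-kB signalling, was measured on 5 arrays with ratios between -0.06 and 0.33.

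The MAP2K tier holds the activators that each serve particular arms. Map2k1 (MEK1), an activator of ERK, had -0.21, -0.32, -0.22, 0.18 and 0.21 at 18 h, in replicates 1 to 5. These lay on both sides of 0 and gave -0.07 ± 0.11 (SE). At 192 h it had 0.04, -0.64 and -0.21, with 2 of 3 below 0, and an estimate of -0.27 ± 0.15 (adjusted p = 0.9987, limma). The single value at 72 h was 0.07. Map2k4 (MKK4), an activator of JNK, had 0.01, 0.02, 0.14 and 0.16 at 18 h, all above 0. It had -0.40 and -0.06 at 72 h, both below 0, and 0.21, -0.05, 0.07 and 0.02 at 192 h. Its estimates were 0.08 ± 0.10 at 18 h, -0.23 ± 0.14 at 72 h and 0.06 ± 0.10 at 192 h, none of which passed in limma (adjusted p of 0.940, 0.992 and 0.9987). The 18 h estimate changed sides of 0 with the authors' deposited log ratios, to -0.26, and with median centring, to -0.13. The lower value at 72 h, in replicate 3, averages -1.13 with tumor RNA in Cy5 and 0.33 with tumor RNA in Cy3.

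Map2k6 (MKK6), an activator of p38, had 0.12, -0.02 and -0.22 at 18 h, 0.24 at 72 h, and 0.18 and 0.22 at 192 h. Its estimate at 18 h was -0.09 ± 0.15 (SE), and the later times had too few values for a test. Map2k5 (MEK5), the activator of ERK5, had 0.04 and -0.01 at 72 h, with an estimate of 0.01 ± 0.20 (SE). Elsewhere it had 0.66 and -0.19 at 18 h and 0.17 and -0.001 at 192 h, values on both sides of 0 at each time.

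In the MAP kinase tier, Mapk6 (ERK3) combined bright spots with a narrow range. It had 0.16, 0.11, 0.16 and 0.03 at 18 h, 0.10 and 0.13 at 72 h, and -0.03, -0.15, -0.03 and -0.13 at 192 h. All 6 values of the first 2 times lay above 0 and all 4 at 192 h below, without overlap. This split holds for averages only: the dye orientations behind the total RNA values lay on opposite sides of 0 in 5 of 7 pairs. In 18 h replicate 5 they were 0.37 with tumor RNA in Cy5 and -0.32 with tumor RNA in Cy3. The probe gave no value in 18 h replicate 2. The estimates were 0.10 ± 0.09 at 18 h, 0.11 ± 0.12 at 72 h and -0.08 ± 0.09 at 192 h (adjusted p of 0.913, 0.992 and 0.9987 in limma). The difference between 192 h and 18 h was -0.18 ± 0.13 (SE), with an adjusted p of 0.828 in limma. A second probe for Mapk6, with dimmer spots, did not share this pattern: it had 0.41, -0.33, -0.003, -0.29 and 0.02 at 18 h, -0.04 and -0.08 at 72 h, and 1.22, -0.60, 0.11 and -0.21 at 192 h. With the mean of both probes the difference was 0.03, on the other side of 0.

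Of the p38 kinases, Mapk11 (p38 beta) had -0.24, -0.08, -0.42 and 0.10 at 18 h and -0.29 and -0.25 at 72 h. The last time gave 0.08, -0.14 and 0.21, so only the 72 h values lay wholly on one side of 0. Limma gave -0.14 ± 0.12 at 18 h, -0.27 ± 0.16 at 72 h and 0.02 ± 0.15 at 192 h (adjusted p of 0.913, 0.992 and 0.9987). With the authors' log ratios the 72 h estimate of Mapk11 was -0.015. Mapk12 (p38 gamma) had 0.09, -0.61 and 0.09 at 18 h, -0.90 and 0.21 at 72 h, and 0.11, 0.26 and -0.12 at 192 h. Both strongly negative values came from single replicates, and its estimate of -0.35 ± 0.26 at 72 h turned to 0.21 without 72 h replicate 3 and to -0.90 without 72 h replicate 4. Mapk13 (p38 delta) had -0.58 at 18 h, -1.26 at 72 h and -0.08 at 192 h, 1 replicate each, which allowed no test. The value of -1.26 averages -0.35 with tumor RNA in Cy5 and -2.18 with tumor RNA in Cy3. Mapk8 (JNK1) had 0.06 and -0.02 at 18 h and 0.80 in the polyA replicate 2 at 192 h, and was not tested either.

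The MAPKAPK are kinases that MAP kinases activate. Mapkapk2 had 0.09, 0.65 and -0.18 at 18 h, 0.18 at 72 h, and 0.28, -0.10 and -0.03 at 192 h. Mapkapk5 had -0.34, 0.28 and -0.21 at 18 h, -0.05 and 0.16 at 72 h, and -0.15, 0.20 and 0.28 at 192 h. Both genes had values on either side of 0 at 18 h and 192 h, and the estimates of both lay between -0.10 and 0.19 at the times tested.

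The adaptors Mapk8ip2 and Mapk1ip1 had the widest ranges among members with at least 7 replicate values, 1.75 and 1.69 log2 units. Dusp3 followed at 1.62. The lowest value of both adaptors came from 18 h replicate 2, the widest in spread over genes. Mapk8ip2, the scaffold JIP2 of the JNK arm, is a gene of neurons. At 18 h it had 0.26 and -1.26 in the polyA replicates 1 and 2, and 0.24 and -0.05 in the total RNA replicates 4 and 5. Later, at 192 h, it had 0.49 and -0.90 in the polyA replicates 1 and 2. Both negative extremes came from polyA RNA with tumor in Cy3, and both positive polyA values from arrays with tumor in Cy5. Its estimate at 18 h was -0.21 ± 0.15 (SE, adjusted p = 0.900, limma), and 0.04 with the authors' log ratios. Mapk1ip1 had -0.38, -0.997, -0.03, 0.34 and 0.13 at 18 h, 0.21 and 0.14 at 72 h, and 0.19, 0.69, -0.25 and -0.09 at 192 h. Its 2 polyA values were below 0 at 18 h and above 0 at 192 h. Of its total RNA values, 2 of 3 were above 0 at 18 h and both were below 0 at 192 h. The difference between 192 h and 18 h was 0.32 ± 0.26 (SE) over all replicates, 1.13 within polyA replicates and -0.32 within total RNA replicates, so it took opposite signs within the RNA types. Mapkbp1, a JNK-binding protein, had -0.02 at 18 h and 0.30 at 192 h and was not tested.

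Among the phosphatases that act on MAP kinases, Dusp8 had the smallest p-value of all members at 18 h. Dusp8 acts on JNK and p38 and is a gene of brain and heart. It had -0.11, -0.05, -0.19, -0.99 and -0.13 in replicates 1 to 5, so all 5 lay below 0 and the fourth lay far below the rest. The estimate was -0.29 ± 0.13 (SE, 95% interval -0.57 to -0.01), with an unadjusted p of 0.043 and an adjusted p of 0.887 in limma. Without replicate 4 it was -0.12, with an unadjusted p of 0.18 in limma. Within the polyA replicates it was -0.08 and within the total RNA replicates -0.44. From the authors' deposited log ratios it was -0.06. The arrays behind replicate 4 gave -0.40 with tumor RNA in Cy5 and -1.58 with tumor RNA in Cy3. At 72 h Dusp8 had -0.16 and -0.04, and at 192 h -0.02, 0.08 and 0.17, where the values straddled 0. The other typical member, Dusp16, a JNK phosphatase, had -0.14 and 0.21 at 18 h, 0.15 at 72 h, and 0.27 and -0.11 at 192 h, and was tested at no time.

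**Figure D4:**
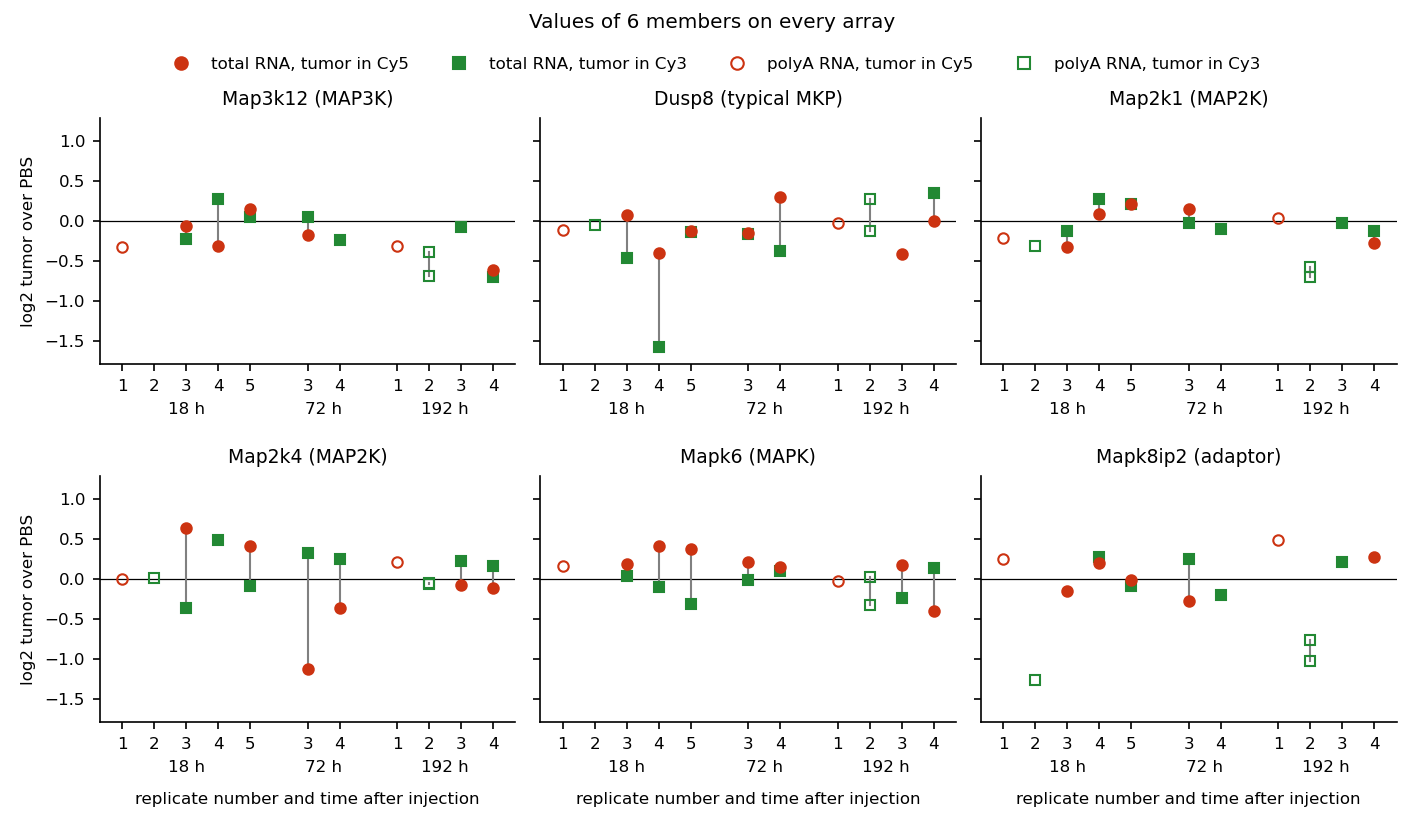
Log2 tumor over PBS of 6 members on every array with a value, by time and replicate number. Circles are arrays with tumor RNA in Cy5 and squares arrays with tumor RNA in Cy3, filled for total RNA and open for polyA RNA, and grey lines join arrays of one replicate. Map3k12 lies below 0 on every array of 192 h, and the dye orientations of Map2k4 lie on opposite sides of 0 in each total RNA replicate that has both.

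Of the 8 atypical dual-specificity phosphatases, 6 were tested at 18 h. Dusp14 had -0.10, -0.58 and -0.08 at 18 h, all 3 below 0, and -0.09 in the 1 replicate of 72 h. Its estimate at 18 h was -0.33 ± 0.19 (SE, adjusted p = 0.887, limma), and replicate 4 lay furthest from 0. The fit's term for dye orientation takes up the polyA value of -0.10, so the estimate rests on -0.58 and -0.08 alone. Dusp3, also called VHR and able to act on ERK and JNK, had 0.59, -0.35 and -0.16 at 18 h, -0.14 and -0.01 at 72 h, and -0.17 and -1.03 at 192 h. Dusp23 was measured in 9 replicates, with -0.12, 0.39, -0.21, 0.05 and -0.09 at 18 h, 0.43 at 72 h, and -0.18, 0.20 and 0.08 at 192 h. They scattered around 0 at 18 h and 192 h, with estimates of 0.004 ± 0.09 and 0.03 ± 0.12 (SE). Dusp12 had 0.13, -0.09, 0.05 and 0.28 at 18 h and 0.09 and 0.19 at 192 h, so 5 of 6 values were above 0. Dusp26, a phosphatase of the nervous system, had 0.30, -0.26, 0.10 and -0.04 at 18 h, -0.32 at 72 h, and -0.07 and -0.86 at 192 h. Its most negative value came from polyA RNA with tumor in Cy3, as did that of Dusp3. The 18 h estimates of Dusp11, Dusp12, Dusp23 and Dusp26 lay between -0.04 and 0.09. Dusp11, which acts on RNA, had -0.47, -0.12, 0.31 and 0.13 at 18 h, with both polyA values below 0 and both total RNA values above. It had -0.55 in replicate 1 at 192 h, and 0.001, 0.10 and 0.05 in the other 3 replicates. That polyA replicate stood apart from the rest, and the estimate was -0.10 ± 0.13 (adjusted p = 0.9987, limma). Dusp21 and Dusp22 were tested at no time. Dusp21 had 0.04 and 0.10 at 18 h, and Dusp22 had -0.22 and 0.11 at 18 h and 0.01 at 192 h.

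The 12 members tested at no time gave 32 replicate values in all, from -1.26 to 0.80, with a median of -0.004. Of these values 16 lay above 0.

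The average of the 3 times was estimated for the 10 members tested at each. Of 1218 genes 0% were called by limma, and 0 of the 10 members. At an unadjusted p under 0.05 limma gave 1.81% of genes and 0 members. Mapk12 had -0.13 ± 0.13 (SE), which was 0.05 without 72 h replicate 3 and -0.32 without 72 h replicate 4. Mapk11 had -0.13 ± 0.08, which was -0.03 with the authors' log ratios. Dusp8 had -0.10 ± 0.10, Map3k4 had 0.10 ± 0.09, Map3k5 had -0.07 ± 0.10 and Mapk6 had 0.04 ± 0.06. With the authors' log ratios Map3k4 had -0.003 and Map3k5 0.07, each on the other side of 0. Every 95% interval of the average lay within 0.5 log2 units of 0.

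The difference between 192 h and 18 h could be estimated for 15 members. Here too 0% of 2507 genes were called by limma, and 0 members. At an unadjusted p under 0.05 limma gave 1 member, Map3k12, and 5.82% of all genes. Map3k12 had a difference of -0.40 ± 0.18 (SE), with a limma unadjusted p of 0.047 and an adjusted p of 0.803. Map3k5 had -0.41 ± 0.22 and Dusp8 0.37 ± 0.21 (adjusted p of 0.828 for both in limma). Map3k4 had -0.30 ± 0.20. The estimates of the 4 MAP3Ks tested here were below 0, as were those of 1363 of 2507 genes. With the authors' deposited log ratios the difference was 0.07 for Map3k4, on the other side of 0, and -0.003 for Map3k12. For Map3k12 it was -0.77 with normexp, and its unadjusted p in limma was 0.078 with the median of the scans, 0.11 with RNA type as a covariate and 0.32 with the replicate number as a block. For Map3k5 the difference was -0.10 without 18 h replicate 2. For Dusp8 it was 0.20 without 18 h replicate 4 and 0.06 with the authors' log ratios. The median was -0.06 over the 15 members and -0.03 over all genes. Between 72 h and 18 h, limma called 0% of 1645 genes and 0 of 14 members. At an unadjusted p under 0.05 it gave 1.64% of genes and 1 member, Map3k2, with -0.64 ± 0.26 (SE, adjusted p = 0.998). In 72 h replicate 3 Map3k2 had -1.82 with tumor RNA in Cy5 and 0.57 with tumor RNA in Cy3. Its 18 h values include polyA RNA, while 72 h was total RNA alone. No alternative was run for the differences from 72 h. Between 192 h and 72 h limma called 0% of 1306 genes and 0 of 10 members, with 2.83% of genes and 0 members at an unadjusted p under 0.05.

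The dye swap gives a measure of error within a replicate. Total RNA replicates yielded 143 pairs of arrays for 37 members. In 50.3% of these pairs the 2 orientations lay on opposite sides of 0, against 57.0% of 31052 pairs over all genes. Taken as 0.5 of its size, the difference between orientations had a median of 0.16 log2 units, and the median size of the ratio itself was 0.14. The orientations of a pair are on different arrays, so effects of the dye and of the array cannot be told apart. For Map2k4 the orientations disagreed in sign in all 6 pairs. Its differences between orientations are given as 0.5 of the ratio with tumor RNA in Cy5 minus that with tumor RNA in Cy3. They were 0.50 and 0.25 at 18 h, -0.73 and -0.31 at 72 h, and -0.15 and -0.14 at 192 h. Those of Map3k2 were 0.28 and 0.37 at 18 h, -1.20 and -0.42 at 72 h, and -0.37 and -0.37 at 192 h. In both genes the orientation with tumor RNA in Cy5 gave the higher ratio at 18 h and the lower one at the later times. Map2k1, Map3k11, Map4k4, Mapkapk5 and Dusp23 each disagreed in sign in 1 pair of 5 or 6.

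**Figure D5:**
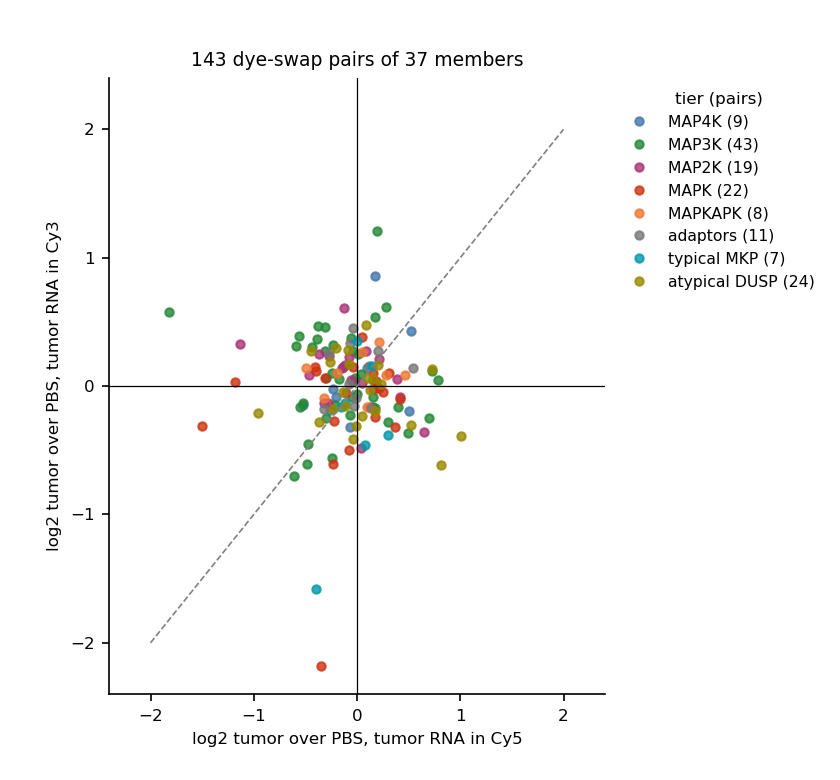
Each point is 1 member in 1 total RNA replicate, with log2 tumor over PBS measured with tumor RNA in Cy5 (horizontal) and in Cy3 (vertical). Points on the dashed line agree between orientations, and about as many points lie in the quadrants of opposite sign as in those of equal sign (72 of 143 pairs opposite).

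Other genes of the pathway, from a list of 92, were named on the array in 41 cases. Tests were possible for 29 at the first time, 9 at the second and 17 at the last, and 0 passed in limma. At an unadjusted p under 0.05 limma gave 2 of 29 at 18 h, against 5.35% of all genes, 0 of 9 at 72 h, against 1.71%, and 0 of 17 at 192 h, against 4.25%. The 2 were Mef2c and Grb2. The transcription factor Mef2c, a target of p38 and ERK5, had -0.50, -0.09, -0.97 and -0.19 at 18 h, in replicates 2 to 5. All lay below 0, with an estimate of -0.46 ± 0.17 (SE). Replicate 4 held the lowest of them, and also the lowest 18 h value of Dusp8, Dusp14, Map3k3 and Mapk11. The median over members in that replicate was 0.05. The adaptor Grb2, which couples receptors to Ras, had 0.19, -2.44 and -0.02 at 18 h. Its estimate of -0.76 ± 0.32 rested on replicate 2, the replicate with the widest spread over genes, and the other 2 values lay on either side of 0. Both genes had an adjusted p of 0.887 in limma. Sos1, the exchange factor that Grb2 recruits, had 0.06, -1.67 and 0.26 at 18 h, so its estimate of -0.45 ± 0.23 was below 0 through replicate 2 alone. Of the 8 Ras and adaptor genes tested at 18 h, 2 had estimates above 0, against 2498 of 5066 over all genes, with the small GTPase Mras at 0.16 ± 0.08. The Raf regulators of the 14-3-3 family, Ywhab and Ywhaz, had estimates of 0.15 ± 0.10 and 0.14 ± 0.09 at 18 h.

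Among the nuclear targets and early genes, 3 of 10 had estimates above 0 at 18 h, against 2498 of 5066 over all genes, and 0 of 6 at 192 h, against 1175 of 2802. At 192 h these 6 had a median of -0.10, against -0.03 for all genes. The cAMP-response factor Creb1 had -1.78, 0.30, 0.14 and -0.32 at 192 h, so its estimate of -0.41 ± 0.23 (SE, adjusted p = 0.9987, limma) rested on replicate 1, and 2 of 4 values were above 0. The ETS factor Elk1, phosphorylated by ERK, had -0.19 ± 0.13 at 18 h and -0.07 ± 0.15 at 192 h. The target kinase Mknk1 had -0.07 ± 0.09 at 18 h, -0.06 ± 0.14 at 72 h and -0.06 ± 0.10 at 192 h. The small GTPase Cdc42, a stress input to MAP3Ks, had -0.15 ± 0.10 at 18 h and -0.22 ± 0.11 at 192 h. Of the feedback inhibitors, the tyrosine phosphatase Ptpn5, which inactivates ERK and p38 in neurons, had -0.11 ± 0.12 at 18 h and -0.09 ± 0.13 at 192 h. Over the list the median was -0.04 at 18 h, 0.03 at 72 h and -0.07 at 192 h, against -0.003, 0.01 and -0.03 over all genes.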

How the data were processed

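Per the file headers, the deposited scanner files, 3 per array, hold spot intensities of 2 channels with the local background already subtracted, beside that background. The authors' own processed values per array are log ratios, read here as natural log from their spread. They served as an alternative, since neither their base nor their normalization is stated. The scanner and its software are likewise not given in the sources used here.

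Per scan, log2 ratios were normalized by loess on intensity (limma, span 0.3, 4 iterations). Scans were averaged, arrays turned to tumor over PBS, and arrays averaged per replicate, with total RNA needing both orientations. A spot was used where both channels were above 0. The brightest probe stood for a gene, named through the platform annotation.

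In limma 3.58.1 (R 4.3.3, data.table, version 1.17.8), lmFit and eBayes over 11 replicates fitted 1 coefficient for each time plus dye orientation. That term takes up a polyA value that stands alone, though n counts it. Adjustment was by Benjamini-Hochberg over all genes tested. The fit was tested on simulated data.

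Members and gene lists were chosen with earlier results of these data known. The text names the 6 members with the smallest p per comparison, the core members of each arm, and the 6 brightest and 6 dimmest. A rule for widest and narrowest range among members with all replicates could not be used, since Mapk1ip1 alone qualified. Ranges over at least 7 replicates were given instead, chosen after values were seen. No member sequences were printed.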

Additional observations from a re-analysis of the deposited data

Results flagged for a closer look

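In 19 groups of 4 or 5 replicate values of a member, 2 had a replicate far from the rest by Dixon's gap at the 95% level. Chance gives about 1 in 20 for normally spread values, and 9.71% of the 3966 such groups over all genes met the same criterion. Dusp8 at 18 h had -0.99 in replicate 4 (total RNA), while its nearest neighbour was -0.19 and the far end -0.05, so the gap took up 0.85 of the range. Dusp11 at 192 h had -0.55 in replicate 1 (polyA RNA), while the other 3 values lay between 0.001 and 0.10, and the gap again took up 0.85 of the range.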

How the results depend on the processing

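The members' calls were 0 in every alternative run for the 5 comparisons, and the number of all genes called moved only as follows. At 18 h it was 32 with polyA replicates alone. At 72 h it was 1 with no minimum number of replicates, 4 with all 25 arrays and 0 to 1 over fits that left out a replicate, the 1 being without 72 h replicate 4. At 192 h it was 21 with no minimum, 1 with total RNA replicates alone and 0 to 3 over fits that left out a replicate, the 3 being without 18 h replicate 2. With no minimum it was 1 for the average of the times and 12 for 192 h minus 18 h.

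The median over members changed sides of 0 with small steps. Leaving out a replicate gave -0.079 to 0.035 at 18 h, where it was 0.035 without 18 h replicate 1, -0.060 to 0.055 at 192 h, where it was -0.060 without 192 h replicate 2 and -0.026 without 192 h replicate 3, -0.080 to 0.050 for the average, without 72 h replicates 4 and 3, and -0.144 to 0.012 for 192 h minus 18 h, without 18 h replicate 2 and 192 h replicate 4. At 72 h it was -0.094 with median centring, 0.059 with normexp and -0.071 with all 25 arrays. At 192 h it was -0.029 with print-tip loess, -0.163 with median centring, -0.023 with total RNA of 1 orientation kept, -0.039 with total RNA alone, -0.0019 with RNA type as a covariate and -0.015 with all 25 arrays. The average was -0.075 with median centring. For 192 h minus 18 h it was 0.015 with print-tip loess, -0.165 with median centring, 0.065 with the authors' log ratios, -0.149 with total RNA alone and 0.021 with polyA alone. Median centring moved all genes too, to a median of -0.137 at 192 h and -0.134 for 192 h minus 18 h. The cause was not tested for any of these.

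Of 46 named member values, 19 kept their sign in all alternatives run for them, 34 of 843 alternative values moved by more than the replicate spread and 0 passed the adjusted threshold. That spread was taken from the SD among single replicate values, which can be wide. Mapk12 at 72 h ran from -0.90 to 0.21 over its alternatives, and none of these counted as moved. The estimate of Map3k12 at 192 h ranged from -0.87 to -0.03. Replicate numbers were shared by 18 h and 192 h, with correlations of 0.549, 0.387, -0.059 and -0.046 between same-numbered replicates. The first 2 are polyA arrays of equal dye orientation, and the numbers were not taken to pair samples. With the replicate number as a block, 0 genes were called for 192 h minus 18 h and the member median was -0.056. Signal near the local background and 2 replicates at 72 h limit what could be seen.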
